A study of Mus musculus with 6 samples.

Results

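Krt8, Krt18, Krt19, Des, Vim, Nes and Synm encode 3 keratins of simple epithelia and 4 filament proteins found in muscle tissue. They were chosen by gene symbol with their old and young values already known, and all 7 of them had a probe, among 21368 named genes on the array. Total RNA of the gastrocnemius, the large muscle of the calf, was profiled in male mice aged 25 months (old, 3 samples) and 13 weeks (young, 3 samples), on 1 single-colour Agilent slide. The labels name no strain, genotype or treatment, and do not state whether the 3 numbered samples of an age were separate animals, so the spread between samples may be partly technical. The series describes the old muscle as atrophied by aging, and the comparison asks which transcripts differ between the ages.

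Intermediate filaments are rope-like polymers that give cells mechanical strength. Keratins assemble only as pairs of a type I and a type II chain, and keratin 8 (type II) with keratin 18 (type I) is the usual pair of simple epithelia. In muscle fibres the main filament is desmin, which ties neighbouring Z-discs together and to the membrane, and vimentin, nestin and synemin can join it or replace it at particular stages and sites. Keratin filaments with keratin 8 and keratin 19 have also been described in mouse muscle, at the costameres that connect the contractile apparatus to the membrane.

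The 7 genes had 11 probes in all, 5 of them for Synm. 10 further protein-coding genes around Krt8 and Krt18 are described below, because these 2 keratins lie next to each other on chromosome 15 of GRCm38.p6 in RefSeq's gene order, with 0 protein-coding genes between them. RefSeq start-site windows, 250 bases before to 50 after the annotated start, were held for 6 of the 7 genes. Those of Krt8 and Krt18 are shown because these were the 2 keratins that were higher together in old muscle. The array's own grid names build mm9, so the coordinates refer to the RefSeq windows and not to the probes. The Krt8 window is chr15:102004293-102004592 on the minus strand and the Krt18 window is chr15:102027966-102028265 on the plus strand, both in GRCm38.p6. Capitals mark the motif letters that were found.
Krt8: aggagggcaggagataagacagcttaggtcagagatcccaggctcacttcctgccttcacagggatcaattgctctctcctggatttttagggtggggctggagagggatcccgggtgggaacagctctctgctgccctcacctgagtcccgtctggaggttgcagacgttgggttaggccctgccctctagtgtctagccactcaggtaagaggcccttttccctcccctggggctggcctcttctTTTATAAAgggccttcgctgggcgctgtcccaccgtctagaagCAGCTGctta
Krt18: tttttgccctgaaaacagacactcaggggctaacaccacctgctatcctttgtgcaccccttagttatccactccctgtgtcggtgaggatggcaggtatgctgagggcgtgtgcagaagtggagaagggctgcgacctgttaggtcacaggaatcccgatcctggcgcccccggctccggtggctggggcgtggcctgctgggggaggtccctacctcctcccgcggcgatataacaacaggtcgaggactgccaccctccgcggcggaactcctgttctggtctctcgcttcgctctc
Both strands were searched for 5 short motifs. The TATA box was taken as TATAAA and the GC box as GGGCGG. The AP-1 element was taken as TGANTCA, where N is any base. The E-box of myogenic factors was taken as CAGCTG and the RUNX element as TGTGGT. The Krt8 window held overlapping TATA box letters on both strands, from base 248 to base 255, and the E-box letters from base 291 to base 296. These TATA box letters began 3 bases before the annotated start and ran past it, and the E-box letters lay after it. The Krt18 window held none of the 5 motifs in these exact letters, and near matches were not searched. Among 32544 different RefSeq windows of this length, 13.6% held the TATA box letters, 35.9% the GC box, 7.79% the AP-1 element, 16.4% this E-box and 16.7% the RUNX element. The Vim window held the TATA box letters once, from base 219 to base 224, beginning 32 bases before the annotated start. The Des window held the GC box letters at 2 places and the E-box letters once, and the Nes window the GC box letters at 2 places. A match of letters does not show that a factor binds there.

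The sample was checked against muscle markers. All 10 genes of the fibre identity list (among them Acta1, Ckm and Myh4) were detected well above background on each of the 6 arrays. They had a median log2 difference of -0.18 between old and young, beside -0.06 over all genes tested. Between 49.9% and 54.8% of gene spots were well above background and 0 were saturated. Values below are log2 signals relative to the 75th percentile of the same array, so a gene's value can be compared between samples but not with another gene's value. In whole tissue, a change in the number of cells of a type and a change in the RNA per cell cannot be told apart.

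Krt18, the type I partner of keratin 8, was far higher in old muscle. Its signal was 3.85, 4.93 and 5.50 on the old arrays, against -0.50, -1.82 and -1.33 on the young arrays. The lowest old array thus stood 4.35 above the highest young array, and the probe was well above background on all 6. The means were 4.76 ± 0.84 in old and -1.22 ± 0.67 in young muscle (SD, n = 3 each), a difference of 5.98 ± 0.49 (SE), or 63.0-fold. This difference was among those that led to the choice of the gene and is given as a description.

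Krt8, the type II partner, was detected in old muscle alone. Its signal was -2.02, -1.93 and -0.76 on the old arrays, where it was well above background each time. On the young arrays it was -4.36, -5.90 and -5.82 and was never well above background. The means were -1.57 ± 0.70 in old and -5.36 ± 0.86 in young muscle (SD, n = 3 each), a measured difference of 3.79 ± 0.51. The old mean was therefore also set against each young array's dimmest probe still called well above background, or the Krt8 signal where higher. This gave a 5.36-fold higher signal in old muscle. It is no strict lower bound, as Krt13 was not well above background at -3.46 on young replicate 2, where the dimmest such probe had -3.91. Normexp background correction, whose offset compresses dim signals, gave a difference of 0.995, which is smaller than this 5.36-fold one.

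Both keratins were highest on old replicate 3 and lowest on old replicate 1 among the old arrays. Old replicate 1 was the only old array in the slide row that held the young arrays. With slide row as a block term, so that this array alone is set against the young ones, the difference was 5.06 for Krt18 and 3.34 for Krt8. Without old replicate 1 it was 6.43 for Krt18 and 4.01 for Krt8.

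Krt19, a type I keratin that pairs with keratin 8, did not follow Krt8 and Krt18. Its signal was -3.09, -3.48 and -3.81 on the old arrays, against -3.73, -2.64 and -2.36 on the young arrays. The ages overlapped, as young replicate 1 lay within the old range, and the difference was -0.55 ± 0.38. All these signals were well above background but close to the dimmest probe so called, which lay between -4.20 and -3.83 over the 6 arrays. The plot of signals by array shows the separation of Krt8 and Krt18 beside the overlap of Krt19.

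**Figure D1:**
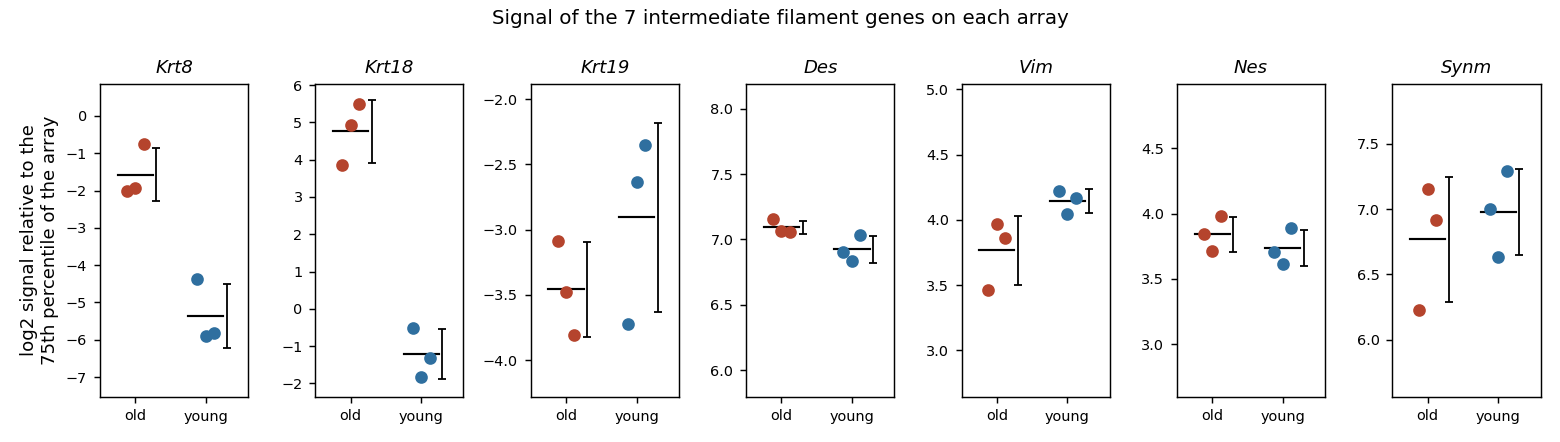
Log2 signal of each gene's tested probe, relative to the 75th percentile of the array, on 3 old arrays (red, left in each panel) and 3 young arrays (blue, right); lines are means, bars are SDs, and the panels of Krt8 and Krt18 span a wider range than the others. Krt18 lay between 3.85 and 5.50 on the old arrays and between -1.82 and -0.50 on the young arrays, while the other genes apart from Krt8 differed by less than 0.6 between the age means.

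Des, which encodes desmin, the main filament of the adult fibre, differed little. Its signal was 7.15, 7.06 and 7.06 on the old arrays, against 6.90, 6.84 and 7.04 on the young arrays. The old values were the higher ones, but the lowest old and the highest young array lay only 0.02 apart. The Des probe is printed at 10 places on the array, and each value is the mean of 8 to 10 of them, with an SD over single spots of 0.03 to 0.05. The difference of 0.17 ± 0.15 was 1.12-fold, and it was 0.021 with each array centred on its median.

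Vim, which encodes vimentin, the filament of mesenchymal cells, endothelium, leukocytes and young myotubes, had slightly lower values on the old arrays. Its signal was 3.46, 3.97 and 3.86 on the old arrays, against 4.22, 4.04 and 4.17 on the young arrays. The ages did not overlap, but the highest old array (3.97) and the lowest young array (4.04) lay close together. The difference of -0.38 ± 0.19 corresponded to a 1.30-fold higher signal in young muscle, and it did not pass limma's adjusted threshold (adjusted p = 0.409). A block on slide row gave -0.68, and leaving out old replicate 1, which had the lowest value, gave -0.23.

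Nes encodes nestin, a filament protein of progenitor cells that persists at the neuromuscular and myotendinous junctions of muscle. Its signal was 3.84, 3.71 and 3.98 on the old arrays, against 3.71, 3.61 and 3.89 on the young arrays. The ages overlapped, and the difference was 0.11 ± 0.16, or -0.041 with each array centred on its median.

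Synm encodes synemin, which binds desmin or vimentin and links them to the costamere. The probe tested had a signal of 6.23, 7.16 and 6.92 on the old arrays, against 6.998, 6.64 and 7.29 on the young arrays, with a difference of -0.21 ± 0.29. The other 4 probes gave differences of 0.15 ± 0.27, 0.27 ± 0.25, -0.46 ± 0.27 and 0.11 ± 0.32, and the -0.46 came from the only probe assigned to accession NM_183312. The sign thus varied among the 5 probes, and the ages overlapped in each. Old replicate 1 had the lowest signal by every probe except the 2 whose lowest array was young replicate 2. The mean of the probes gave -0.03.

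**Figure D2:**
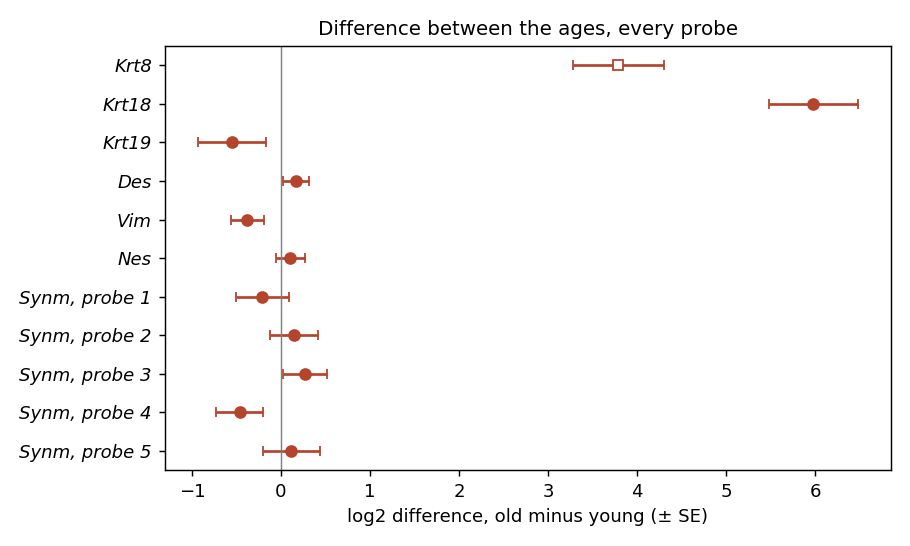
Log2 difference, old minus young, for each of the 11 probes, with its SE (3 arrays per age); the open square marks the Krt8 probe, which was never well above background in young muscle. Krt18 (5.98) and Krt8 (3.79) lay far to the right, and the 9 other probes lay between -0.55 and 0.27.

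Of the 7 genes, Krt18 passed limma's test at an adjusted p under 0.05 over all genes, where 0.196% of the 20906 genes were called higher, 0.0574% lower and 0.254% in either direction. The ages did not overlap for 4 of them, with Krt8, Krt18 and Des higher and Vim lower in old muscle. Of all genes 7.92% were separated with old higher, 13.9% with old lower and 21.8% in either direction. As the genes were chosen with these values known, the counts describe them and are no evidence. Krt8 also entered the test only through the old arrays, as the filter asked for 3 arrays well above background. Its separation and any call of it are therefore not independent of that filter. The count called was 0 without old replicate 2, old replicate 3, young replicate 2 or young replicate 3, and it was 2, Krt8 and Krt18, without old replicate 1. With the replicate number as a block it was 0.

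The other keratin genes lie outside the 7, although this list too was drawn up with earlier results known. Of 49 further keratins with a probe, 28 were not well above background on any array, among them the epidermal Krt1 and Krt5 and the hair keratins Krt33a and Krt35. Another 10 were detected on too few arrays to be tested. Krt7, a type II keratin of simple epithelia, was one of these, well above background on 2 of 3 old and 0 of 3 young arrays, with a signal of -3.08, -3.42 and -4.88 in old against -6.08, -4.16 and -3.86 in young muscle. Krt28 was likewise detected on 2 of 3 old and 0 of 3 young arrays, and Krt9 on 0 of 3 old and 2 of 3 young arrays.

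Of the 11 keratins tested, 0 passed limma's adjusted threshold, and 1 had an unadjusted p under 0.05, against 14.5% of all genes. Their median difference was -0.19 and 9 were negative. The lowest p was that of Krt82, a hair keratin, with -0.63 ± 0.21 (adjusted p = 0.261). Krt86 had -1.09 ± 0.60, Krt31 -0.27 ± 0.15 and Krt6b, a keratin induced in activated epidermis, -0.60 ± 0.34, with adjusted p from 0.452 to 0.461. The highest of the 11 was 0.36, far from Krt8 and Krt18.

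The remaining intermediate filament genes were also tested. Of 14, the astrocyte filament Gfap and the neurofilament chains Nefl and Nefm were not detected on any array. Of the 10 tested, 0 passed the adjusted threshold and 2 had an unadjusted p under 0.05, Bfsp2 and Iffo1, where 14.5% of all genes had one. Bfsp2, known as a filament protein of the lens, had -1.01 ± 0.23 (limma's adjusted p = 0.152), and its old values lay below the young ones. Iffo1, of the intermediate filament orphan family, had 0.53 ± 0.21, Prph, the peripherin of peripheral neurons, -0.55 ± 0.27, and Lmna, which encodes the nuclear lamins A and C, 0.28 ± 0.20. Sync, the desmin partner syncoilin, had 0.24 ± 0.17.

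Proteins that anchor filaments were tested as another list. Of 18 tested, 0 passed limma's adjusted threshold and 2 had an unadjusted p under 0.05, against 14.5% of all genes, with a median difference of -0.04. Pkp2, plakophilin 2, which connects filaments to desmosomes and to related junctions of the heart, had the lowest p. Its signal was 1.94, 2.04 and 2.32 on the old arrays, against 0.89, 0.85 and 0.71 on the young arrays, without overlap. The difference was 1.28 ± 0.17, or 2.43-fold, with limma's adjusted p = 0.0526. Over all alternatives the adjusted p lay between 0.0227, with array weights, and 0.209, without young replicate 2. It was under the threshold with normexp, the authors' values, detection on each of the 6 arrays, trend and robust eBayes, array weights, and without old replicate 1 (0.0395), and above it with the others. Ppl, the cytolinker periplakin, had -0.65 ± 0.24 (0.298), Nrap, of the muscle end and the developing myofibril, -0.40 ± 0.21 (0.421), and Dtna, the dystrobrevin of the dystrophin complex, 0.85 ± 0.45 (0.433), each with limma's adjusted p in parentheses. The desmosomal genes Dsp and Pkp1 were not well above background on any array.

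**Figure D3:**
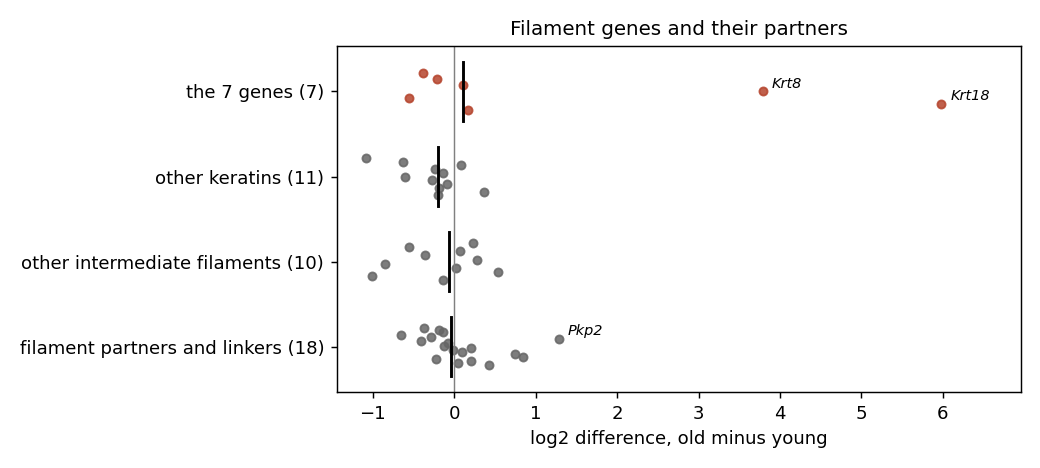
Log2 difference, old minus young, of the 7 genes (red) and of the tested genes of 3 other lists (grey), with the number tested in parentheses and a black line at each list's median. Krt18 and Krt8 lay at 5.98 and 3.79, and no gene of the other 3 lists was above the 1.28 of Pkp2.

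Keratins 8 and 18 are made by epithelial and mesothelial cells, so markers of these cells were measured on the same arrays. The marker lists here and below were drawn up with earlier results of these data known, so their counts are descriptions and no evidence. Of 20 epithelial markers 11 were not well above background on any array, among them Epcam, the cadherin Cdh1 and the transcription factor Grhl2. Of the 5 tested, 0 passed limma's adjusted threshold and 0 had an unadjusted p under 0.05, against 14.5% of all genes. The summed signal of the 20, on a linear scale relative to the 75th percentile, was 1.62 to 2.05 on the old arrays and 1.42 to 1.67 on the young arrays, so the ages overlapped. Here and below, such a sum gives most weight to the brightest probes, so it can follow 1 gene more than the list. Of 11 epidermal markers, 5 were not detected on any array and 0 of the 6 tested passed limma's adjusted threshold. Only 1, Perp, had an unadjusted p under 0.05, and it was higher in old muscle (0.68 ± 0.27), where 6.07% of all genes were. The summed signal of the 11, in which Trp63 was the brightest, was 23.6 to 31.2 in old and 31.1 to 34.1 in young muscle.

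Among the mesothelial markers, Msln, which encodes the surface protein mesothelin, rose. Its signal was -1.31, -1.84 and -1.66 on the old arrays, against -3.68, -3.48 and -3.37 on the young arrays. The difference was 1.91 ± 0.20, or 3.75-fold (limma's adjusted p = 0.0263), without overlap. The other 5 mesothelial markers with a probe were not tested. Upk1b, Wt1, Lrrn4 and Bnc1 were not well above background on any array, and Upk3b was so on 1 young array. The summed signal of the 6, with Msln the brightest on each old array, was 0.372 to 0.494 in old and 0.174 to 0.232 in young muscle. The part of these cells in the keratin differences was not tested. The Msln call was lost when any 1 array other than old replicate 1 was left out, with adjusted p from 0.0843 to 0.114. It was also lost with no filter on dim probes (0.0901), with the replicate block (0.106) and with normexp, under which the difference was 0.80 (0.0896).

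Genes of denervated and regenerating fibres were measured on the same arrays. Of 15, all tested, 0 passed limma's adjusted threshold, and 10 had an unadjusted p under 0.05 and all 10 were higher in old muscle, where 6.07% of all genes were. Old and young did not overlap in 9 of them, all higher in old, against 7.92% of all genes, and the ages overlapped in the other 6. The list was drawn up with earlier results known, so these shares are no evidence of an enrichment. Chrng, which is in both counts, passed the detection filter only through the old arrays. The median difference was 1.66, and the lowest was the -0.18 of the myosin gene Myh8, while Actc1 had 0.10. Runx1, a transcription factor induced by denervation, had 2.75 ± 0.41 (adjusted p = 0.0676), and embryonic myosin Myh3 had 1.66 ± 0.28 (0.0972).

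The order over the old arrays differed among these genes. The regulator Myog had 1.12, 2.20 and 3.39 on the old arrays, against -0.52, -0.22 and 0.04 on the young arrays, so it was lowest on old replicate 1 and highest on old replicate 3, as Krt8 and Krt18 were. Ankrd1, a stretch-responsive gene, had 3.55, 3.82 and 6.28 on the old arrays, against 1.58, 1.06 and 0.74 on the young arrays. Myh3 had 2.77, 2.07 and 1.87 on the old arrays, against 0.30, 0.52 and 0.89 on the young arrays, and was thus highest on old replicate 1. Myog was chosen after the data were seen, and the share of all genes with its order was not counted. An order over 3 arrays is easily shared, and that of Krt8 rests on -2.02 against -1.93, so it shows no link by itself. The part of these genes in the keratin differences was not tested.

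Vim is made by several cell types, whose markers were measured on the same samples. The 10 fibroblast markers had a median difference of -0.47 and a summed signal of 247 to 376 in old and 476 to 532 in young muscle, without overlap. Of these, 0 passed limma's adjusted threshold and 4 had an unadjusted p under 0.05, all lower in old, where 8.39% of all genes were, among them Thy1 (-0.82 ± 0.19) and Col1a2 (-1.54 ± 0.36). The brightest fibroblast marker, which weighed most in the sum, was Dcn. It had 8.28, 7.56 and 6.87 on the old arrays, against 8.43, 8.36 and 8.48 on the young arrays. Among the endothelial markers Egfl7 was the brightest, and its ages overlapped. The 8 endothelial markers had a median of -0.23 and a summed signal of 58.3 to 76.1 in old and 78.6 to 114 in young muscle, with 0 past limma's adjusted threshold and 2 lower at an unadjusted p under 0.05, among them Cdh5 at -0.79 ± 0.22. The 10 markers of pericytes and smooth muscle had a median of -0.48 and a summed signal of 62.2 to 69.9 in old and 82.2 to 91.2 in young muscle, with 0 past limma's adjusted threshold and 3 lower at an unadjusted p under 0.05, among them Notch3 at -0.64 ± 0.25.

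Leukocyte markers had a positive median. It was 0.87 over the 10, and their summed signal was 28.9 to 36.2 in old and 22.7 to 24.5 in young muscle. Of them 0 passed limma's adjusted threshold and 8 had an unadjusted p under 0.05, all higher in old, where 6.07% of all genes were, with Tyrobp, an adaptor of myeloid receptors, at 0.88 ± 0.17 and Fcer1g, a signalling chain of Fc receptors, at 0.87 ± 0.21. Schwann cell markers had a median of -0.60 over 7 and satellite cell markers 0.10 over 5, with 0 passing limma's adjusted threshold in either list. At an unadjusted p under 0.05, 4 Schwann cell markers and 1 satellite cell marker were lower in old and 0 were higher, where 8.39% and 6.07% of all genes were. The part of these cells in the Vim difference was not tested.

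**Figure D4:**
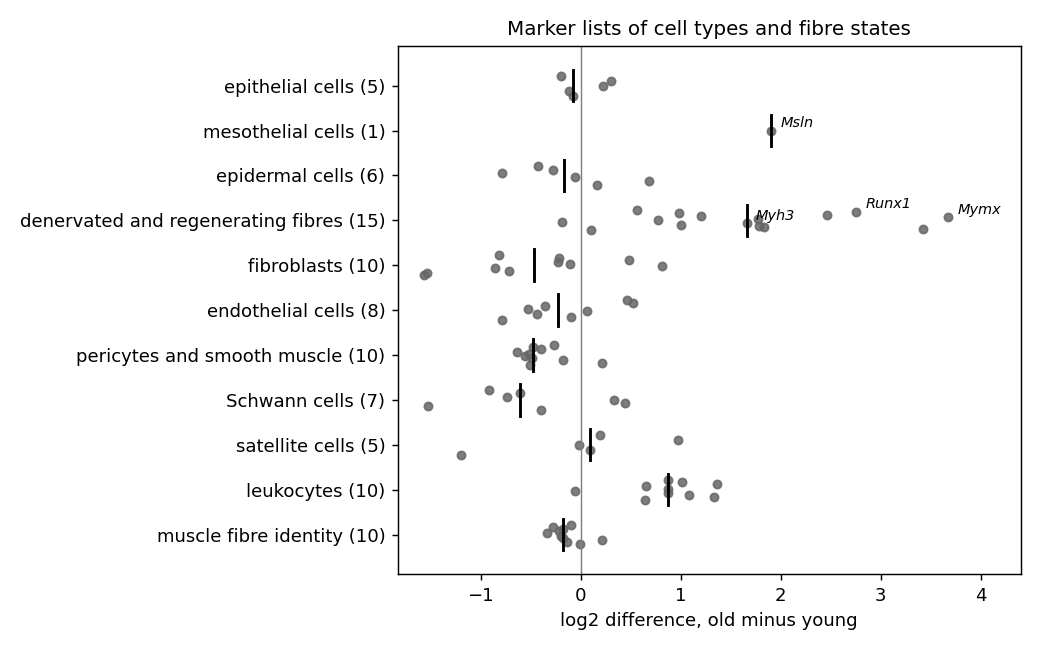
Log2 difference, old minus young, of the tested genes of 11 marker lists, with the number tested in parentheses and a black line at each list's median. Msln (1.91) was the only mesothelial marker tested, and the list of denervated and regenerating fibres had the next highest median (1.66), followed by leukocytes (0.87).

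The neighbours of Krt8 and Krt18 on chromosome 15 had far smaller differences where they were tested. Of the 10 protein-coding genes next to the pair, 5 on each side, 5 were tested and 0 passed limma's adjusted threshold, with 1, Igfbp6, at an unadjusted p under 0.05, against 14.5% of all genes. On the Krt8 side lie further type II keratins. Of these Krt79 had -0.24 ± 0.17, and Krt78, Krt4, Krt76 and Krt77 were not well above background on any array. On the Krt18 side Eif4b, a translation initiation factor, had 0.12 ± 0.18, Tns2, the focal adhesion protein tensin 2, -0.82 ± 0.47, Spryd3 0.34 ± 0.21 and the IGF-binding protein Igfbp6 -0.66 ± 0.18. The lowest adjusted p among the 5 was 0.205.

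The genes whose signals over the 6 arrays most resembled those of Krt18 were sought among 13164 tested genes with a symbol. Likeness was the root-mean-square difference between log2 profiles, each centred on its own mean over the 6 arrays. The profiles were not scaled, so this measure depends strongly on the size of the difference between the ages. The nearest was Gdf5, a growth factor of the BMP family, at 0.84, followed by Chrna9, an acetylcholine receptor subunit, at 1.13. Then came S100a8 and S100a9, the calprotectin subunits of neutrophils, at 1.13 and 1.14. Krt8 was the fifth, at 1.15, a rank that rests on young values not well above background, whereas Des, Vim, Nes, Synm and Krt19 lay between 2.97 and 3.43 from Krt18. These genes were chosen with their old and young values known, so the distances among them are descriptions and no evidence.

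Chrna9 had -0.52, 3.14 and 3.82 on the old arrays, against -3.41, -3.77 and -2.14 on the young arrays, so that, like Krt18, it was lowest in old replicate 1 among the old samples. S100a8 had 2.26, 1.602 and 1.62 on the old arrays, against -3.58, -2.68 and -2.68 on the young arrays, and was highest in old replicate 1.

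The order of likeness to Krt8 is not settled, since its young values were not well above background. On the values as measured the nearest were the chemokine Ccl8, at 0.37, and the myeloid receptor gene Sirpb1b, at 0.44. Slpi, a secreted inhibitor of leukocyte proteases, followed at 0.51, then Ankrd1 at 0.58 and Sirpb1a, another myeloid receptor gene, at 0.61. Sirpb1a and Sirpb1b were, like Krt8, never well above background in young muscle, and their probes may not tell apart the members of this family of near-identical genes. With 6 arrays in 2 ages and no scaling, this likeness largely reflects the size of the difference between the ages.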

How the data were processed

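Total RNA of the gastrocnemius of 3 old and 3 young mice was labelled with Cy3 for 1-colour Agilent arrays, 1 per sample, per the labels' protocols. The deposited scanner files give the intensity of each spot after background subtraction by Agilent Feature Extraction 11.0.1.1, per the file headers, while the submitters' processing notes name version 9.5. The authors' deposited value table holds the same intensity divided by the 75th percentile of the array, times 100 and rounded (all 62976 values per array lay within 1 of that), and served as an alternative. Outlier spots (161 to 212 per array) and control spots did not enter. For each probe the mean log2 processed signal of its spots was set relative to the 75th percentile of the array's probes. All later values are on this scale.

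The files name probes by accession. Of 55681 probes, 28331 matched the RefSeq gene table (GRCm38.p6) with 1 symbol each and 27350 did not. A probe was used if 3 or more of the 6 arrays measured it well above background (28012 probes), and the brightest such probe on average stood for its gene, which gave 20906 genes. Limma 3.58.1 in R 4.3.3 tested old against young (two-sided, lmFit then eBayes), and p-values were adjusted by Benjamini-Hochberg over all genes, with a threshold of 0.05. With 3 arrays per age an exact permutation test gives no p under 0.1, so none is used. All arrays shared 1 slide and 1 scan day. Row 1 of the slide held the 3 young arrays and old replicate 1, and row 2 held old replicates 2 and 3.

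The 7 genes and the 14 comparison lists were chosen with earlier results of these data known. From the lists the text names genes past the threshold and up to 4 tested genes with the lowest p, together with list members that were not detected. The nearest patterns are the 5 genes with a symbol closest to Krt18 and to Krt8. The genes beside Krt8 and Krt18, and Krt7, Krt9, Krt28, Myog, Chrng, Myh8, Actc1 and Sync, were chosen after the data were seen. Alternatives were quantile normalization, median centring, normexp on the spot median (the files hold no mean signal), the authors' values with a pseudocount of 1, other filters, the mean of a gene's probes, trend and robust eBayes, array weights, blocks on replicate number or slide row, and 1 array left out at a time. Python 3.11.15 made the figures.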

Additional observations from a re-analysis of the deposited data

How the results depend on the processing

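The number of arrays, and for Krt8 and Krt19 a signal near background, limit the precision. The number of genes past the threshold was 53 (41 higher), and it was 8 with no filter on dim probes (36717 genes tested), 35 with detection required on each of the 6 arrays (18551 tested, Krt8 not among them), 194 with array weights, 5 with the replicate number as a block, and 1 to 204 when an array was left out, with 204 without old replicate 1. The split was 26 higher of 42 with median centring, 40 of 66 with normexp and 22 of 41 with the slide row as a block. Of the 7 genes, 1 was called, and 2 with the authors' values, trend and robust eBayes or array weights, 0 with no filter on dim probes or with the replicate block, and 0 to 2 when an array was left out. Replicate numbers are shared by the ages. The correlations of same-numbered deviations were -0.06, -0.27 and 0.03, and those of differently numbered ones lay between -0.21 and 0.35. With 3 arrays per age these values cannot show whether the samples were paired. Median centring moved the median of all genes to -0.21 from -0.06.

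Krt18 and Krt8 kept their direction under every alternative that gave a value, and differences beyond the replicate spread were 5.06 for Krt18 under a block on slide row and 0.995 for Krt8 under normexp. Des had 0.28 with quantile normalization and 0.021 with median centring, and Nes -0.041 with median centring. A block on slide row gave -0.68 for Vim and -0.75 for Synm. Leaving out 1 array gave 5.61 to 6.43 for Krt18, 3.38 to 4.29 for Krt8, -0.96 to -0.28 for Krt19, 0.12 to 0.22 for Des, -0.48 to -0.23 for Vim, 0.04 to 0.18 for Nes and -0.40 to 0.06 for Synm. Synm also had 0.05 with array weights. The count called in the list of denervated and regenerating fibres was 0, with 4 under array weights and 2 without old replicate 1. The causes of these changes were not tested.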
